A study of Mus musculus with 47 samples.

Results

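The daily change in muscle RNA was compared between adrenalectomized mice given dexamethasone and adrenalectomized mice given adrenaline. The comparison used 16 of the 47 bulk RNA-seq libraries of the series, chosen from the sample labels alone: 4 libraries each of ADX+DEX at ZT12, ADX+DEX at ZT0, ADX+ADR at ZT12 and ADX+ADR at ZT0. ZT counts hours from lights on, so ZT0 is the start of the light phase and ZT12 the start of the dark phase, when mice become active. For every gene the time effect under each hormone was the ZT12 level minus the ZT0 level on a log2 scale. The adrenaline time effect was then subtracted from the dexamethasone time effect, and this quantity is called the difference below. A positive difference means a more positive ZT12-over-ZT0 change under dexamethasone.

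All 16 animals were wild-type C57BL/6 females fed ad libitum, with both adrenals removed (ADX) and saline with glucose to drink, and each library came from 1 whole tibialis anterior, a fast shin muscle. Dexamethasone, a synthetic glucocorticoid, was given at 5 mg/kg and adrenaline at 0.5 mg/kg, by intraperitoneal injection at ZT12 for 10 days. The design notes also mention a recovery of 2 weeks, so the interval between the last injection and tissue collection is not clear from them. No vehicle-injected group is among the 47 libraries, and effects of injection and of hormone cannot be told apart. Within a hormone, time of day and time since injection also cannot be told apart. The ADX+DEX mice were 14 weeks old apart from replicate 4 at ZT0, which was 11 weeks old. In ADX+ADR, 3 of the ZT12 mice were 13 weeks old, and the other ZT12 mouse and all ZT0 mice were 14 weeks old.

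Glucocorticoids act through the glucocorticoid receptor, a nuclear receptor that binds DNA and changes transcription of its target genes, among them clock genes such as Per1. Adrenaline acts on beta-adrenergic receptors of muscle fibres and vessels, raises cyclic AMP and induces short-lived genes such as the NR4A nuclear receptors. The muscle clock is a feedback loop in which BMAL1 (Arntl) and CLOCK drive the Period, Cryptochrome, REV-ERB (Nr1d1, Nr1d2) and D-box factor genes through E-box elements, and these products feed back on the loop.

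Levels are FPKM, fragments scaled to gene length and library depth, taken back from the deposited log2(FPKM + 0.01) values. Differences and time effects are on that log2 scale, ± SE. They were tested with limma over 12000 genes in a model of all 12 groups and 47 libraries, called here the 12-group test, and a gene passed at an adjusted p under 0.05. The same test on the 16 injected libraries alone is called the 16-library test, and its adjusted p is given where it changes the call of a described difference. Both tests give the same log2 values and differ in the spread they use, as the 12-group test takes in the spread of genes among sham-operated and adrenalectomized mice, wild-type and RE-RE. Where a gene varies more in those groups, its 12-group SE and adjusted p do not measure the spread of the 16 libraries alone. Nothing in the labels says more of the replicates than that they are separate animals.

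The smallest steps of the FPKM values gave a depth of 19.3 to 29.7 M reads in each library (median 21.8). Between 278 and 382 genes per library were listed at 0 in ADX+DEX at ZT12, 297 to 357 in ADX+DEX at ZT0, 153 to 207 in ADX+ADR at ZT12 and 154 to 211 in ADX+ADR at ZT0. Any 2 libraries of the same group shared 13 to 32 exactly equal low values, whereas 96 pairs of libraries from different groups shared at most 1. No processing step given in the sources used here accounts for such sharing, and its part in the spread within groups and in the p-values was not tested. The myosin heavy chain of the fastest fibres, Myh4, had 5255 to 6812 FPKM at ZT12 and 5469 to 6780.1 FPKM at ZT0 under dexamethasone, and 7197 to 8350.5 FPKM at ZT12 and 7522 to 8931 FPKM at ZT0 under adrenaline. All ADX+DEX libraries were below all ADX+ADR libraries for Myh4, and the times overlapped under both hormones. Replicate 4 of ADX+DEX at ZT0, the younger mouse, stood apart from the other 3 in several metabolic genes, such as the mitochondrial uncoupling protein gene Ucp3 at 54.2 FPKM against 0 to 1.94 FPKM. Without it, the difference described next passed for 1261 genes.

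The difference passed the 12-group test for 1631 genes, 13.6% of the 12000 tested, and was positive for 912 of them (7.6%) and negative for 719 (5.99%). In the 16-library test it passed for 1504 genes (12.5%), 663 positive (5.53%) and 841 negative (7.01%), and 1166 genes passed in both, so the split between directions depends on the libraries in the model. The ZT12 effect itself passed for 3337 genes under dexamethasone (27.8%, 1759 up and 1578 down) and for 1527 under adrenaline (12.7%, 753 up and 774 down). In the 16-library test it passed for 3130 genes under dexamethasone (26.1%, with 13.0% up and 13.1% down) and for 1295 under adrenaline (10.8%, with 5.52% up and 5.27% down). Among the genes that passed the test of the difference, 999 also passed under dexamethasone and not under adrenaline, 295 under adrenaline and not under dexamethasone, 100 under both in the same direction, 93 under both in opposite directions and 144 under neither. Of the 912 positive differences, 662 went with a rise at ZT12 under dexamethasone and 213 with a fall under adrenaline. Of the 719 negative ones, 508 went with a fall under dexamethasone and 197 with a rise under adrenaline. A further 532 genes (4.43%) passed in the same direction under both hormones with no difference past the 12-group test, 263 up and 269 down at ZT12. A missed threshold does not show equal effects. Among these genes, the differences of Dbp, Ciart and Gadd45b passed the 16-library test. Across 11540 genes with no value at 0, the 2 time effects had a Pearson r of 0.281 and a Spearman rank correlation of 0.237, given as a description because genes are not independent. The time effects rest on 8 libraries each, with none in common.

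**Figure D1:**
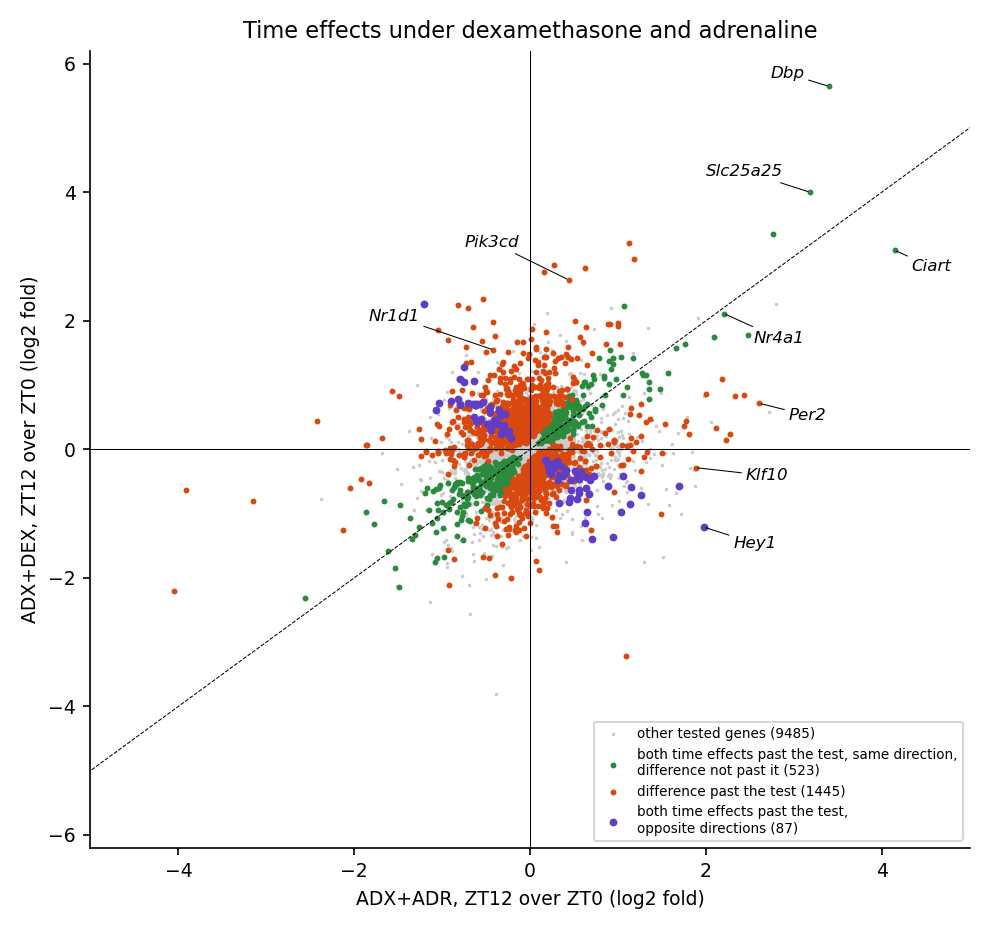
Time effects (ZT12 over ZT0, log2 fold) under dexamethasone on the vertical axis and under adrenaline on the horizontal axis, 1 point per gene for the genes with no value at 0, coloured by which tests passed in the 12-group model. Points on the dashed line moved equally under both hormones; Pik3cd and Nr1d1 lie above it, Hey1, Klf10 and Per2 below it, and Dbp, Ciart, Slc25a25 and Nr4a1 rose under both.

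Of the 12 most negative differences, 10 were in genes that rose at ZT12 under adrenaline, against 6.28% of all tested genes. Such a rise lowers the difference by which these genes were chosen, so the count only describes them. Of all 719 negative differences, 197 went with a rise under adrenaline and 508 with a fall under dexamethasone. Among the 10 genes only Per2 also rose under dexamethasone, with an adjusted p of 0.042 in the 12-group test and 0.085 in the 16-library test. Hey1, a transcriptional repressor induced by Notch signalling (chr3:8663359-8667256, minus strand, GRCm38), had 0.542, 0.221, 0.304 and 0.294 FPKM at ZT12 against 0.848, 0.627, 0.869 and 0.719 FPKM at ZT0 under dexamethasone, and 5.50, 5.56, 4.72 and 5.58 FPKM at ZT12 against 1.10, 1.43, 1.69 and 1.24 FPKM at ZT0 under adrenaline. All 4 groups were separate, with ADX+ADR at ZT12 highest and ADX+DEX at ZT12 lowest. Its difference was -3.19 ± 0.25 (adjusted p = 3.9e-12), from time effects of -1.21 under dexamethasone and 1.98 under adrenaline, both past the test. In adrenalectomized mice without injections Hey1 lay at 2.48 to 2.92 FPKM at ZT12 and 2.48 to 3.01 FPKM at ZT0.

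Klf10, a zinc finger transcription factor induced by TGF-beta and other signals, had 10.7, 9.49, 8.29 and 10.3 FPKM at ZT12 against 12.3, 12.0, 10.1 and 12.8 FPKM at ZT0 under dexamethasone, and 33.6, 35.2, 38.9 and 34.4 FPKM at ZT12 against 10.6, 8.81, 9.24 and 9.86 FPKM at ZT0 under adrenaline. The 4 ADX+ADR libraries at ZT12 stood above all others, and the remaining 3 groups lay close together. The difference was -2.17 ± 0.42 (adjusted p = 0.00045). Klf4, another Krüppel-like factor, had 5.71, 5.79, 5.87 and 2.76 FPKM at ZT12 against 2.34, 4.92, 3.33 and 7.08 FPKM at ZT0 under dexamethasone, and 28.5, 33.2, 37.5 and 32.2 FPKM at ZT12 against 4.69, 11.6, 7.28 and 5.35 FPKM at ZT0 under adrenaline, and its difference was -2.02 ± 0.51 (adjusted p = 0.0064). The ADX+ADR libraries at ZT12 were again apart from all others, and the dexamethasone groups overlapped.

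Also among these 12 was Lrrc32, which docks latent TGF-beta on the cell surface. Lrrc32 had 1.00, 0.669, 0.809 and 0.778 FPKM at ZT12 against 1.03, 1.17, 0.915 and 1.87 FPKM at ZT0 under dexamethasone, and 9.01, 8.54, 8.48 and 7.80 FPKM at ZT12 against 2.50, 2.74, 3.03 and 2.19 FPKM at ZT0 under adrenaline. Uts2r, the receptor of the vasoactive peptide urotensin II, had 0.669, 0.570, 0.471 and 0.600 FPKM at ZT12 against 0.373, 0.398, 0.746 and 0.638 FPKM at ZT0 under dexamethasone, and 7.15, 9.66, 10.3 and 8.34 FPKM at ZT12 against 1.75, 1.73, 1.87 and 2.11 FPKM at ZT0 under adrenaline. In both, ADX+ADR libraries at ZT12 were far above those at ZT0, and both dexamethasone groups lay below every adrenaline library. The differences were -2.26 ± 0.25 (adjusted p = 2.5e-08) for Lrrc32 and -2.08 ± 0.49 (adjusted p = 0.0035) for Uts2r. Gpr4, a proton-sensing receptor found on endothelium, fell by 1.40 under dexamethasone and rose by 0.71 under adrenaline, for a difference of -2.11 ± 0.30 (adjusted p = 6.8e-06); the adrenaline effect had an adjusted p of 0.12 in the 16-library test. Id1, an inhibitor of basic helix-loop-helix factors and a target of BMP signalling, had 7.04, 7.07, 6.04 and 4.07 FPKM at ZT12 against 11.5, 15.7, 15.3 and 19.3 FPKM at ZT0 under dexamethasone, and 35.6, 32.7, 28.6 and 27.7 FPKM at ZT12 against 15.0, 20.8, 17.4 and 12.5 FPKM at ZT0 under adrenaline. It fell at ZT12 under dexamethasone and rose under adrenaline, with no overlap between the times under either, and its difference was -2.30 ± 0.41 (adjusted p = 0.00015). Tnfrsf10b, a death receptor for TRAIL, rose by 2.12 under adrenaline, and under dexamethasone it was low at both times, at 0.132 to 0.265 FPKM at ZT12 and 0.0805 to 0.221 FPKM at ZT0. Its difference was -1.79 ± 0.35 (adjusted p = 0.00045).

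In 11 of the 12 most positive differences, all but Mir133a-1, ADX+DEX at ZT0 had the lowest mean of the 4 groups. A low level in that group raises the difference by which these genes were chosen, so the count only describes them. Pik3cd, the delta catalytic subunit of phosphoinositide 3-kinase (chr4:149649168-149702571, minus strand), had 3.48, 3.67, 3.53 and 3.60 FPKM at ZT12 against 0.783, 0.511, 0.576 and 0.444 FPKM at ZT0 under dexamethasone, and 2.92, 2.55, 2.56 and 2.54 FPKM at ZT12 against 1.95, 2.23, 1.96 and 1.67 FPKM at ZT0 under adrenaline. ZT0 under dexamethasone was the lowest group and ZT12 the highest, with no overlap between any 2 groups. The difference was 2.20 ± 0.15 (adjusted p = 1.2e-13), from time effects of 2.64 under dexamethasone and 0.44 under adrenaline, the adrenaline effect with an adjusted p of 0.0045 in the 12-group test and 0.053 in the 16-library test.

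Rhobtb1, an atypical small-GTPase-like protein, had 3.24, 4.31, 5.31 and 2.41 FPKM at ZT12 against 0.487, 0.654, 0.408 and 0.447 FPKM at ZT0 under dexamethasone, and 5.41, 6.12, 5.95 and 3.72 FPKM at ZT12 against 5.78, 2.99, 3.92 and 5.12 FPKM at ZT0 under adrenaline. Golga7b had 2.02, 1.97, 1.69 and 2.77 FPKM at ZT12 against 0.366, 0.195, 0.642 and 0.169 FPKM at ZT0 under dexamethasone, and 1.20, 2.10, 1.63 and 1.42 FPKM at ZT12 against 1.33, 1.36, 1.60 and 1.32 FPKM at ZT0 under adrenaline. Cyp4f39, a cytochrome P450 of the family that hydroxylates fatty acids, had 18.4, 23.9, 21.8 and 19.3 FPKM at ZT12 against 6.19, 7.40, 5.33 and 4.27 FPKM at ZT0 under dexamethasone, and 25.0, 27.4, 16.2 and 21.0 FPKM at ZT12 against 22.0, 22.3, 22.2 and 20.2 FPKM at ZT0 under adrenaline. In these 3 genes the ADX+DEX libraries at ZT0 were below all others and the adrenaline groups overlapped. The differences were 2.60 ± 0.35 (adjusted p = 2.6e-06) for Rhobtb1, 2.60 ± 0.41 (adjusted p = 3.1e-05) for Golga7b and 1.85 ± 0.22 (adjusted p = 2.1e-07) for Cyp4f39. Gja1, the gap junction protein connexin 43, had 9.61, 7.10, 7.41 and 3.36 FPKM at ZT12 against 1.85, 1.33, 1.25 and 0.836 FPKM at ZT0 under dexamethasone, and 11.5, 4.49, 7.83 and 8.00 FPKM at ZT12 against 8.55, 11.0, 12.2 and 12.5 FPKM at ZT0 under adrenaline. Here too ADX+DEX at ZT0 was below all other libraries and the adrenaline groups overlapped, and the difference was 2.87 ± 0.56 (adjusted p = 0.00051).

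Several of the most positive differences were matrix genes and are described with the markers of other cells. Mndal, an interferon-inducible member of the p200 family, had a difference of 2.02 ± 0.29 (adjusted p = 6.2e-06). Mir133a-1, a muscle microRNA gene, had 6.49 to 22.0 FPKM at ZT12 and 12.3 to 18.1 FPKM at ZT0 under dexamethasone, and 0.412 to 1.25 FPKM at ZT12 and 4.93 to 18.3 FPKM at ZT0 under adrenaline, and its difference was 3.28 ± 0.55 (adjusted p = 7.5e-05). The gene is short, and reads of a longer transcript across it cannot be told apart from its own. Several calls were less firm. Tlnrd1, a talin rod domain protein, had a difference of -1.80 ± 0.38 (adjusted p = 0.0011) in the 12-group test and an adjusted p of 0.055 in the 16-library test. Loxl1, which cross-links elastin, had 2.91 ± 0.78 (adjusted p = 0.01), an adjusted p of 0.13 in the 16-library test, and a value of 1.66 without ADX+DEX replicate 3 at ZT0. The call of Snord72, a small nucleolar RNA gene, at -1.95 ± 0.67 (adjusted p = 0.048), was lost without at least 1 library. Cys1, a ciliary protein, was not among these less firm calls. Its difference was -1.97 ± 0.28 (adjusted p = 5.7e-06), and the call was kept without each library in turn.

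**Figure D2:**
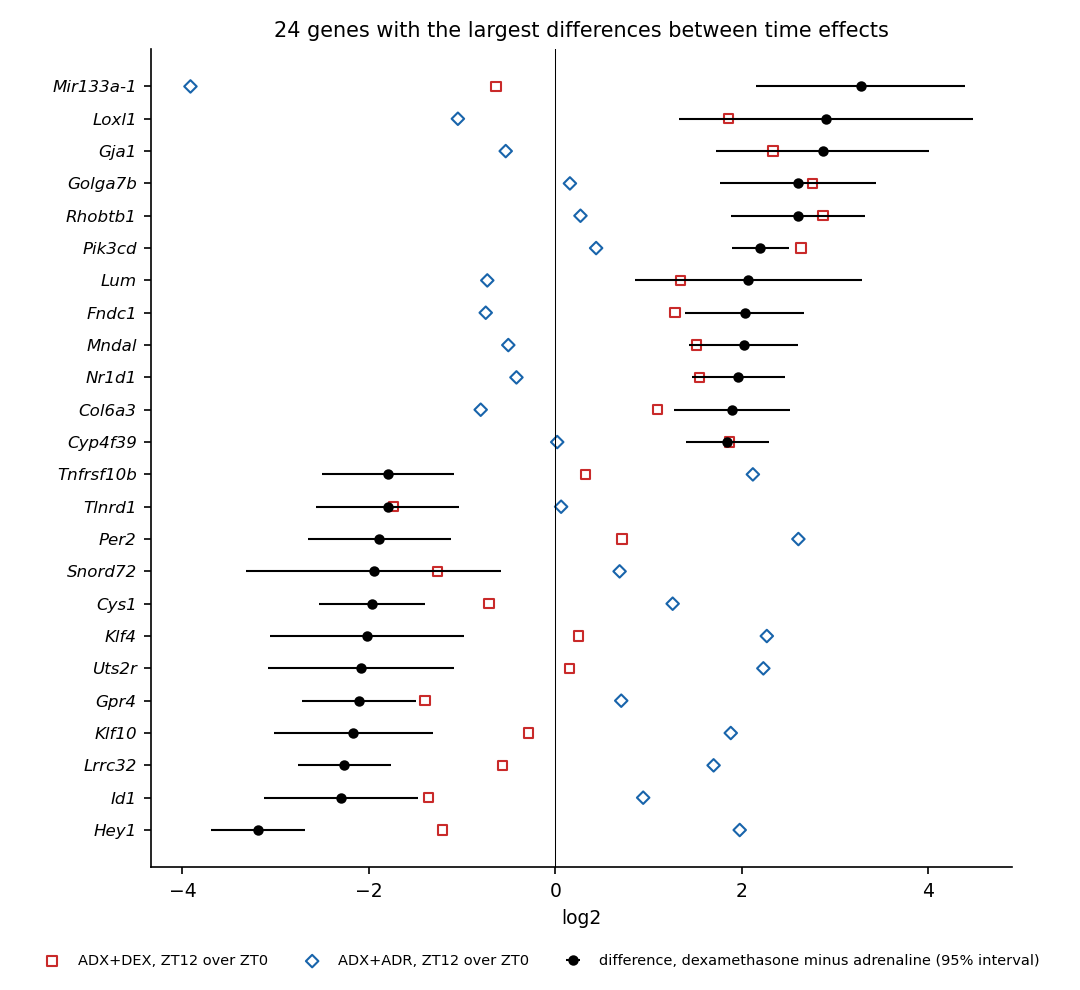
The 12 most positive and 12 most negative differences past the test, also on log2(FPKM + 1), in genes with no value at 0 and a mean of at least 1 FPKM. Filled circles with 95% intervals give the difference, open squares the dexamethasone time effect and open diamonds the adrenaline time effect, all in log2 units. Genes with squares and diamonds on opposite sides of 0 include Hey1, Id1, Lrrc32, Gpr4 and Cys1 among the negative differences. Nr1d1 and Col6a3 are examples among the positive ones.

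Of 19 core clock genes, all tested, the difference passed for 4 in the positive direction (Per3, Nr1d1, Nr1d2 and Npas2) and for 3 in the negative direction (Per2, Cry1 and Cry2), against 7.6% and 5.99% of all tested genes. The 16-library test counted 4 positive and 7 negative, against 5.53% and 7.01% of all tested genes. The median difference over the list was -0.11, and over all tested genes -0.02. The time effect itself passed for 10 clock genes up and 5 down under dexamethasone (14.7% and 13.2% of all tested genes) and for 11 up and 3 down under adrenaline (6.28% and 6.45%).

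Among the activators, Arntl, which encodes BMAL1, had 5.45, 5.75, 5.02 and 5.10 FPKM at ZT12 against 22.4, 26.1, 23.6 and 21.4 FPKM at ZT0 under dexamethasone, and 5.66, 5.96, 6.19 and 6.29 FPKM at ZT12 against 17.5, 17.0, 16.1 and 18.0 FPKM at ZT0 under adrenaline. ZT12 was below ZT0 under both hormones with no overlap, and ADX+DEX at ZT0 was above ADX+ADR at ZT0. The difference was -0.62 ± 1.14 (adjusted p = 0.78) in the 12-group test, whose spread takes in the groups without injections. In the 16-library test its SE was 0.09 and its adjusted p 0.00037. Npas2, a partner that can stand in for CLOCK, had 0.0897, 0.0731, 0.0973 and 0.0778 FPKM at ZT12 against 0.392, 0.502, 0.332 and 0.492 FPKM at ZT0 under dexamethasone, and 0.0902, 0.00491, 0.0268 and 0.0681 FPKM at ZT12 against 0.646, 0.668, 0.750 and 0.944 FPKM at ZT0 under adrenaline. It was below 1 FPKM throughout, its difference of 1.84 ± 0.41 (adjusted p = 0.0021) rests on levels near 0 in ADX+ADR at ZT12, and its adjusted p was 0.077 in the 16-library test.

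The repressors of the loop differed in direction. Nr1d1, which encodes REV-ERB alpha, a repressor of Arntl (chr11:98767932-98775333, minus strand), had 64.2, 62.5, 56.7 and 60.6 FPKM at ZT12 against 21.0, 21.1, 20.3 and 21.0 FPKM at ZT0 under dexamethasone, and 39.7, 33.9, 32.7 and 32.1 FPKM at ZT12 against 42.1, 47.7, 48.2 and 46.3 FPKM at ZT0 under adrenaline. Under dexamethasone ZT12 was about 3 times as high as ZT0, and under adrenaline ZT12 lay below ZT0, with no overlap between any 2 groups. Its difference was 1.96 ± 0.25 (adjusted p = 6.8e-07); the adrenaline time effect was -0.42 ± 0.17 (adjusted p = 0.11) in the 12-group test, with an adjusted p of 0.0005 in the 16-library test. In uninjected adrenalectomized mice Nr1d1 lay at 13.4 to 21.9 FPKM at ZT12 and 22.2 to 29.8 FPKM at ZT0, and in sham-operated mice at 14.7 to 25.9 FPKM at ZT12 and 24.4 to 40.9 FPKM at ZT0. Nr1d2, which encodes REV-ERB beta, had 37.6, 37.4, 41.3 and 38.4 FPKM at ZT12 against 11.5, 12.0, 11.0 and 15.3 FPKM at ZT0 under dexamethasone, and 33.2, 35.5, 32.6 and 34.1 FPKM at ZT12 against 18.1, 15.7, 16.0 and 16.6 FPKM at ZT0 under adrenaline. It rose at ZT12 under both hormones, with a difference of 0.61 ± 0.13 (adjusted p = 0.0015).

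Per3 (chr4:151003652-151044665, minus strand) had 5.85, 6.02, 6.43 and 5.94 FPKM at ZT12 against 0 FPKM in all 4 libraries at ZT0 under dexamethasone, and 5.89, 6.11, 4.37 and 5.98 FPKM at ZT12 against 1.28, 1.39, 1.25 and 0.769 FPKM at ZT0 under adrenaline. It was listed at 0 in every ADX+DEX library at ZT0, so no fold is given for that hormone, and under adrenaline the time effect was 2.27 ± 0.14 (adjusted p = 6.6e-14). The test called its difference positive (adjusted p = 1.2e-25). ADX+DEX and ADX+ADR overlapped at ZT12 and were apart at ZT0. Uninjected adrenalectomized mice had 3.50 to 4.88 FPKM at ZT0, so the values of 0 did not appear there.

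Per2 had 3.24, 3.48, 5.27 and 3.81 FPKM at ZT12 against 1.36, 2.28, 2.39 and 4.16 FPKM at ZT0 under dexamethasone, and 3.04, 2.93, 3.43 and 3.73 FPKM at ZT12 against 0.410, 0.821, 0.593 and 0.389 FPKM at ZT0 under adrenaline. The hormones overlapped at ZT12, and at ZT0 every ADX+DEX library was above every ADX+ADR library. Its difference was -1.89 ± 0.38 (adjusted p = 0.00062). The highest ZT0 value under dexamethasone was that of replicate 4, the 11-week-old mouse. Per1, the Period gene with glucocorticoid and cyclic AMP response elements, had 18.6, 19.1, 18.5 and 17.7 FPKM at ZT12 against 8.08, 12.1, 12.9 and 18.6 FPKM at ZT0 under dexamethasone, and 27.0, 29.8, 37.4 and 32.0 FPKM at ZT12 against 4.34, 5.17, 4.79 and 4.73 FPKM at ZT0 under adrenaline. Under adrenaline ZT12 was far above ZT0, while under dexamethasone replicate 4 at ZT0 reached the ZT12 range. The difference was -2.14 ± 1.78 (adjusted p = 0.47) in the 12-group test, where Per1 varies strongly in other groups, and its adjusted p was 7.1e-05 in the 16-library test. Uninjected adrenalectomized mice had 1.38 to 2.60 FPKM at ZT12 and 0 to 1.57 FPKM at ZT0.

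The cryptochromes, which close the feedback loop, both had negative differences. Cry2 had 9.36, 10.1, 9.34 and 8.88 FPKM at ZT12 against 8.66, 8.68, 9.47 and 9.24 FPKM at ZT0 under dexamethasone, and 9.88, 9.77, 9.10 and 9.78 FPKM at ZT12 against 5.23, 5.38, 6.00 and 5.51 FPKM at ZT0 under adrenaline. Only ADX+ADR at ZT0 stood apart, below the other 3 groups, and the difference was -0.74 ± 0.13 (adjusted p = 0.00015). Cry1 had 6.59, 6.89, 7.08 and 7.11 FPKM at ZT12 against 14.4, 14.5, 15.6 and 13.6 FPKM at ZT0 under dexamethasone, and 5.86, 5.80, 5.77 and 5.99 FPKM at ZT12 against 8.95, 8.69, 8.76 and 9.10 FPKM at ZT0 under adrenaline. Here ZT12 was below ZT0 under both hormones without overlap, ADX+DEX at ZT0 was the highest group, and the difference was -0.47 ± 0.14 (adjusted p = 0.024).

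The D-box activator Dbp and the repressor Ciart rose at ZT12 under both hormones. Dbp had 58.5, 69.0, 72.0 and 53.4 FPKM at ZT12 against 0.904, 1.21, 1.21 and 1.79 FPKM at ZT0 under dexamethasone, and 55.2, 50.5, 32.2 and 44.1 FPKM at ZT12 against 5.95, 3.46, 4.51 and 3.44 FPKM at ZT0 under adrenaline. ZT12 and ZT0 were far apart under both hormones, with ADX+DEX lower than ADX+ADR at ZT0. Its difference was 2.25 ± 1.50 (adjusted p = 0.35) in the 12-group test and had an adjusted p of 0.00027 in the 16-library test. Ciart, a repressor of CLOCK and BMAL1, had 8.81, 10.3, 8.66 and 8.82 FPKM at ZT12 against 0.995, 1.02, 0.957 and 1.31 FPKM at ZT0 under dexamethasone, and 3.76, 3.21, 4.21 and 3.08 FPKM at ZT12 against 0.249, 0.154, 0.199 and 0.168 FPKM at ZT0 under adrenaline, and its difference was -1.06 ± 1.20 (adjusted p = 0.62), with an adjusted p of 0.0039 in the 16-library test. On log2(FPKM + 1) the value was 0.37, with ADX+ADR at ZT0 below 1 FPKM in every library. Nfil3, a D-box repressor, fell at ZT12 under dexamethasone, with 15.5 to 18.2 FPKM at ZT12 and 38.2 to 53.4 FPKM at ZT0 under dexamethasone, and 14.7 to 20.1 FPKM at ZT12 and 18.0 to 21.7 FPKM at ZT0 under adrenaline.

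**Figure D3:**
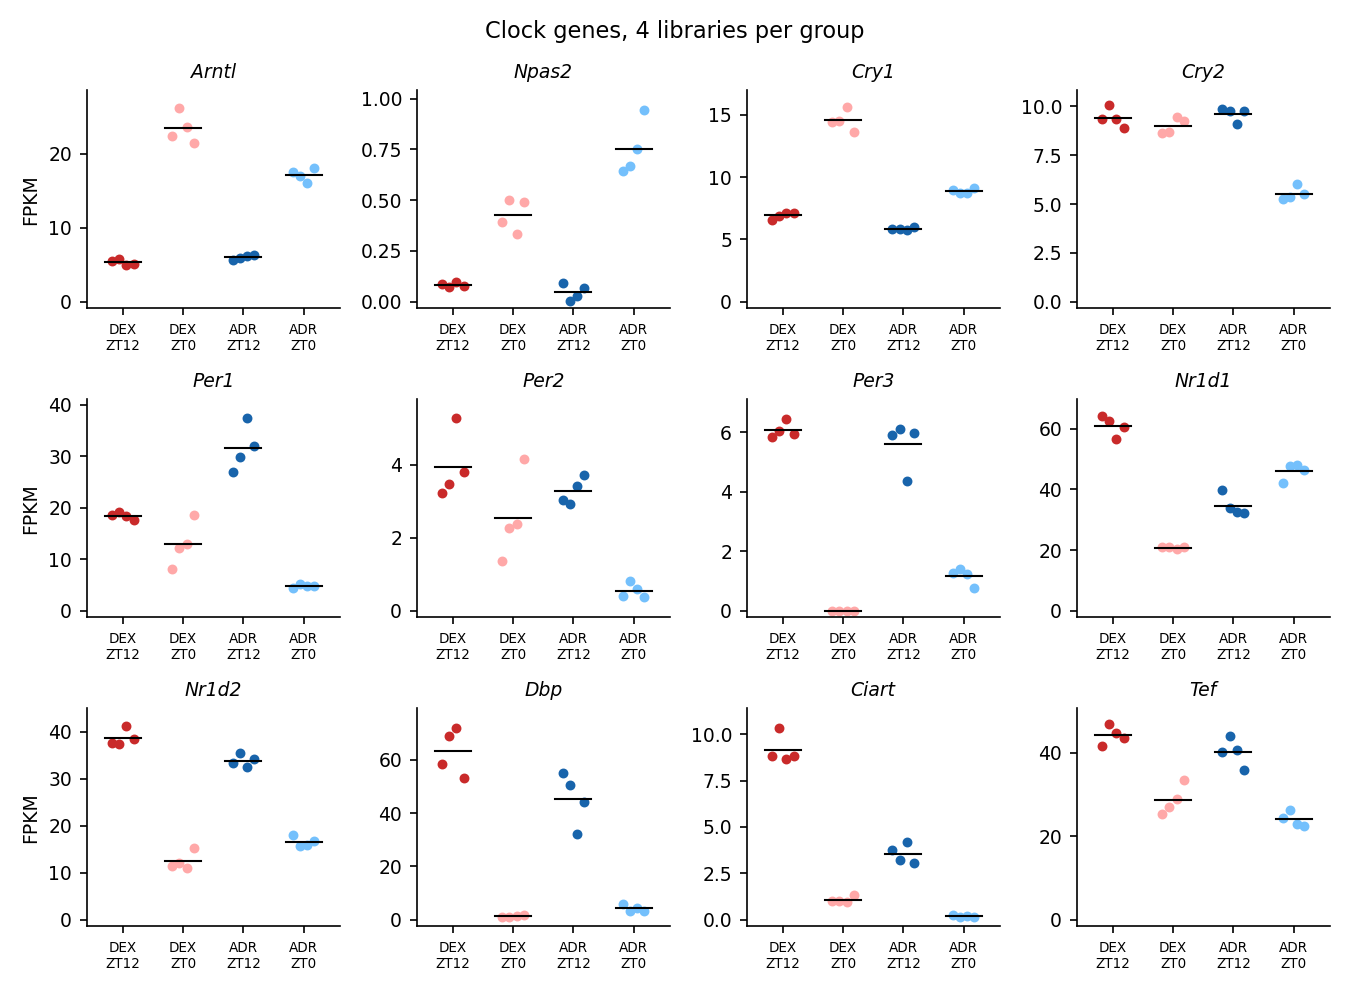
FPKM of 12 clock genes in each of the 4 libraries per group, with the group mean as a bar; the groups run ADX+DEX at ZT12, ADX+DEX at ZT0, ADX+ADR at ZT12 and ADX+ADR at ZT0. Per3 is at 0 in all 4 ADX+DEX libraries at ZT0, Nr1d1 is highest in ADX+DEX at ZT12 and lowest in ADX+DEX at ZT0, and Cry2 is low in ADX+ADR at ZT0 alone.

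The promoters of 3 clock genes and of the cyclic AMP target Slc25a25 are shown because they carry the elements through which the clock and cyclic AMP act. They run from 250 bases before to 50 after a RefSeq start site on GRCm38.p6, and 76 of the 97 named genes had such an entry. Capitals mark the E-box CACGTG, the D-box TTATGTAA or the cyclic AMP response element TGACGTCA, each searched on both strands.
Ciart (chr3:95882179-95882478, minus strand): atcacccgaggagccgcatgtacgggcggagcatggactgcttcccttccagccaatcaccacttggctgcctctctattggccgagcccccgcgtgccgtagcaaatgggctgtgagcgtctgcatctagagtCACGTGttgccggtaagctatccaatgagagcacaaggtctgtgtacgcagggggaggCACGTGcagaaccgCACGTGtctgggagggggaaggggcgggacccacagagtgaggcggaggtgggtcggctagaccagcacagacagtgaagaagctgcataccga
Per3 (chr4:151044616-151044915, minus strand): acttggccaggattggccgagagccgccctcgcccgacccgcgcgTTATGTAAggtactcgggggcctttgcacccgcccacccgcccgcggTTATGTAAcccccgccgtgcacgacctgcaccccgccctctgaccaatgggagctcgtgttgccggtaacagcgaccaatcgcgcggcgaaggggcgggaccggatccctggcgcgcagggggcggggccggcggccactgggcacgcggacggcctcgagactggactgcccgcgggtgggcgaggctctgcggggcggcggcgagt
Per1 (chr11:69098699-69098998, plus strand): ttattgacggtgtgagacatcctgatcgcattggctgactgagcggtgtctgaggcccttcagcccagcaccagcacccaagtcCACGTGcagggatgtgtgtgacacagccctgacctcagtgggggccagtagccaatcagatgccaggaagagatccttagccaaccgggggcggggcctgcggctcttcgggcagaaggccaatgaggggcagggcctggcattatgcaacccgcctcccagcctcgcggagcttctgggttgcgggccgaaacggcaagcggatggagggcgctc
Slc25a25 (chr2:32424017-32424316, minus strand): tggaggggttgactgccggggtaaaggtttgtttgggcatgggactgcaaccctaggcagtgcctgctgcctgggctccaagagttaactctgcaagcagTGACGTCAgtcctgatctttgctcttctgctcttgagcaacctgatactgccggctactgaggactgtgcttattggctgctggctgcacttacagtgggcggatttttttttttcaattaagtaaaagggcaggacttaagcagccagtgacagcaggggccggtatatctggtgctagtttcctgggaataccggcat
Ciart holds 3 E-boxes, Per3 holds 2 D-boxes, Per1 holds 1 E-box and Slc25a25 holds 1 cyclic AMP response element. RefSeq gave more than 1 start site for Per1 and Slc25a25, and the window with the element is the one shown. The windows of Nr1d1 and Dbp hold none of these letters.

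Of all 32851 promoters in the table, 7.15% held the E-box, 0.938% the D-box, 1.79% the cyclic AMP response element, 0.475% the glucocorticoid response element core, GNACA and TGTNC with 3 bases between them, and 16.3% the nuclear receptor half-site AGGTCA, which is not contained in the other motifs. The 10961 promoters matched to tested genes held them at 10.2%, 0.493%, 3.07%, 0.383% and 12.5%. Promoters of genes with positive differences held the E-box at 8.15% and the cyclic AMP response element at 1.93%, and those of genes with negative differences at 9.97% and 5.35%. The glucocorticoid response element core was in 0.322% of the promoters of genes with positive differences and in 0.434% of those with negative ones, against 0.383% of tested promoters. These are descriptions of letters in a short window.

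Of 26 glucocorticoid receptor targets, the difference was positive past the test for 1 (Nfkbia) and negative for 4 (Glul, Foxo1, Irs2 and Ddit4), against 7.6% and 5.99% of all tested genes. In the 16-library test the counts were 2 and 11, against 5.53% and 7.01%. The median difference over the list was -0.59. Under dexamethasone 4 members rose and 6 fell at ZT12 past the test, and under adrenaline 9 rose and 0 fell. The shares over all tested genes were 14.7% up and 13.2% down under dexamethasone and 6.28% up and 6.45% down under adrenaline. In the 16-library test 7 members rose and 10 fell under dexamethasone (13.0% and 13.1% of all tested genes), and 13 rose and 7 fell under adrenaline (5.52% and 5.27%), so the absence of falls under adrenaline depends on the libraries in the model.

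Fkbp5, a co-chaperone of the glucocorticoid receptor and a standard readout of its activity (chr17:28399094-28517527, minus strand), had 37.2, 36.7, 35.4 and 37.4 FPKM at ZT12 against 80.6, 91.0, 97.0 and 98.9 FPKM at ZT0 under dexamethasone, and 8.94, 8.99, 9.47 and 9.08 FPKM at ZT12 against 12.2, 12.2, 12.1 and 12.3 FPKM at ZT0 under adrenaline. Every ADX+DEX library was above every ADX+ADR library, and ZT12 lay below ZT0 under both hormones with no overlap. The difference was -0.90 ± 1.33 (adjusted p = 0.71) in the 12-group test, with an adjusted p of 2.4e-06 in the 16-library test. In uninjected adrenalectomized mice Fkbp5 was listed at 0 in all libraries.

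Glul, glutamine synthetase, had 83.8, 77.7, 84.7 and 86.6 FPKM at ZT12 against 131, 179, 157 and 193 FPKM at ZT0 under dexamethasone, and 73.8, 80.8, 90.2 and 91.7 FPKM at ZT12 against 49.6, 59.6, 54.8 and 50.1 FPKM at ZT0 under adrenaline. ADX+DEX at ZT0 was above all other libraries and ADX+ADR at ZT0 below them, and the ZT12 groups overlapped. The difference was -1.62 ± 0.29 (adjusted p = 0.00015). Foxo1, a transcription factor of fasting and atrophy, had 4.71, 4.71, 4.76 and 4.72 FPKM at ZT12 against 7.31, 9.99, 10.5 and 15.6 FPKM at ZT0 under dexamethasone, and 4.25, 4.17, 4.19 and 3.99 FPKM at ZT12 against 4.05, 4.33, 3.96 and 4.24 FPKM at ZT0 under adrenaline. The ZT12 group under dexamethasone and both groups under adrenaline lay close together, ADX+DEX at ZT0 was apart, and the difference was -1.15 ± 0.24 (adjusted p = 0.0011). Its highest value belonged to replicate 4.

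Nfkbia, the inhibitor of NF-kappa B induced by glucocorticoids, went the other way. Nfkbia had 64.8, 60.1, 65.2 and 59.6 FPKM at ZT12 against 14.6, 16.2, 17.2 and 18.7 FPKM at ZT0 under dexamethasone, and 13.9, 13.9, 14.3 and 13.7 FPKM at ZT12 against 8.51, 8.43, 7.83 and 11.6 FPKM at ZT0 under adrenaline. ADX+DEX at ZT12 was more than 3 times as high as any other library. The difference was 1.28 ± 0.24 (adjusted p = 0.00025). Ddit4, a brake on the growth kinase complex mTORC1, had 64.2, 59.6, 68.5 and 64.9 FPKM at ZT12 against 9.25, 9.15, 10.2 and 12.4 FPKM at ZT0 under dexamethasone, and 3.70, 3.54, 5.56 and 3.74 FPKM at ZT12 against 0 FPKM in all 4 libraries at ZT0 under adrenaline. It was listed at 0 in all ADX+ADR libraries at ZT0, so no fold is given under adrenaline. The test called its difference negative (adjusted p = 0.021), but on log2(FPKM + 1) the value was 0.20 and did not pass, and the ZT12 minus ZT0 gain in FPKM was larger under dexamethasone. Irs2, an adaptor of insulin signalling, had 5.48, 3.86, 3.81 and 4.03 FPKM at ZT12 against 1.99, 3.19, 3.13 and 4.83 FPKM at ZT0 under dexamethasone, and 8.41, 10.1, 12.7 and 7.93 FPKM at ZT12 against 2.40, 3.29, 2.80 and 2.84 FPKM at ZT0 under adrenaline, and its difference was -1.33 ± 0.34 (adjusted p = 0.0069). ADX+ADR at ZT12 was above all other libraries. The mineralocorticoid receptor Nr3c2 had a difference of 0.71 ± 0.16 (adjusted p = 0.0021), with 2.73 to 3.36 FPKM at ZT12 and 1.35 to 2.02 FPKM at ZT0 under dexamethasone, and 2.98 to 3.54 FPKM at ZT12 and 2.79 to 3.21 FPKM at ZT0 under adrenaline.

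Of 18 tested genes of the adrenergic and cyclic AMP response, the difference was positive for 2 (Sik1 and Pfkfb3) and negative for 5 (Id1, Pde4b, Pde4d, Crem and Nr4a2), against 7.6% and 5.99% of all tested genes. Nr4a2 was at 0 in all ADX+DEX libraries, so its difference comes from the adrenaline libraries alone, with 26.1 to 31.2 FPKM at ZT12 and 2.01 to 2.23 FPKM at ZT0. The 16-library test counted 4 and 8, against 5.53% and 7.01%. The list median was -0.61. Under adrenaline 10 members rose and 0 fell at ZT12 (6.28% and 6.45% of all tested genes), and under dexamethasone 5 rose and 4 fell (14.7% and 13.2%).

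Nr4a1, a nuclear receptor rapidly induced by adrenergic stimulation, had 89.9, 96.6, 108 and 78.7 FPKM at ZT12 against 14.7, 18.5, 22.3 and 34.8 FPKM at ZT0 under dexamethasone, and 213, 243, 287 and 237 FPKM at ZT12 against 46.3, 76.1, 57.6 and 38.4 FPKM at ZT0 under adrenaline. ZT12 was above ZT0 under both hormones, and the adrenaline libraries were above the dexamethasone libraries of the same time. Its difference was -0.09 ± 0.44 (adjusted p = 0.92), so the fold at ZT12 was not shown to differ. Slc25a25, a mitochondrial ATP-magnesium carrier, had 11.2, 12.5, 14.4 and 14.9 FPKM at ZT12 against 0.114, 0.686, 1.73 and 3.04 FPKM at ZT0 under dexamethasone, and 26.8, 31.8, 37.8 and 31.2 FPKM at ZT12 against 2.96, 4.79, 4.33 and 2.38 FPKM at ZT0 under adrenaline. It too rose at ZT12 under both hormones without overlap. Its difference was 0.82 ± 0.76 (adjusted p = 0.53), but -0.13 on log2(FPKM + 1) and -0.09 without replicate 1 of ADX+DEX at ZT0. Apold1, an early response gene of endothelium, rose under both hormones as well, with 2.81 to 7.29 FPKM at ZT12 and 0.0551 to 1.37 FPKM at ZT0 under dexamethasone, and 19.3 to 22.1 FPKM at ZT12 and 2.22 to 4.43 FPKM at ZT0 under adrenaline. Its difference was 0.58 ± 0.92 (adjusted p = 0.74), but -0.61 on log2(FPKM + 1) and -0.37 without replicate 3 of ADX+DEX at ZT0.

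Sik1, a kinase that ends cyclic AMP signalling through the CREB coactivators, had 3.63, 4.71, 4.16 and 2.51 FPKM at ZT12 against 0 FPKM in all 4 libraries at ZT0 under dexamethasone, and 27.9, 32.4, 35.3 and 29.6 FPKM at ZT12 against 3.22, 4.40, 3.18 and 3.68 FPKM at ZT0 under adrenaline. It was listed at 0 in all ADX+DEX libraries at ZT0. The positive call (adjusted p = 9.1e-06) rests on those values, and on log2(FPKM + 1) the value was -0.58 and did not pass. Junb, an AP-1 subunit, was likewise at 0 FPKM in all 4 ADX+DEX libraries at ZT0, with 0.839 to 2.44 FPKM at ZT12, and had 105 to 139.9 FPKM at ZT12 and 14.0 to 17.6 FPKM at ZT0 under adrenaline. The difference of Junb was positive with an adjusted p of 0.099 in the 12-group test and 1.7e-06 in the 16-library test. It too rests on those values of 0, and its sign turned negative on log2(FPKM + 1). Pde4b, a phosphodiesterase that degrades cyclic AMP, had 9.62, 9.01, 9.96 and 11.1 FPKM at ZT12 against 14.1, 11.9, 13.8 and 10.9 FPKM at ZT0 under dexamethasone, and 13.3, 13.9, 10.3 and 13.0 FPKM at ZT12 against 8.72, 8.97, 8.15 and 7.90 FPKM at ZT0 under adrenaline. Under adrenaline ZT12 was above ZT0 without overlap, and the difference was -0.92 ± 0.17 (adjusted p = 0.00025). Arrb1, an arrestin that ends receptor signalling, had 0.40 ± 0.12 (adjusted p = 0.022), and that call was lost without at least 1 library, as was the call of the immediate early gene Ier2 at -1.15 ± 0.36 (adjusted p = 0.026).

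**Figure D4:**
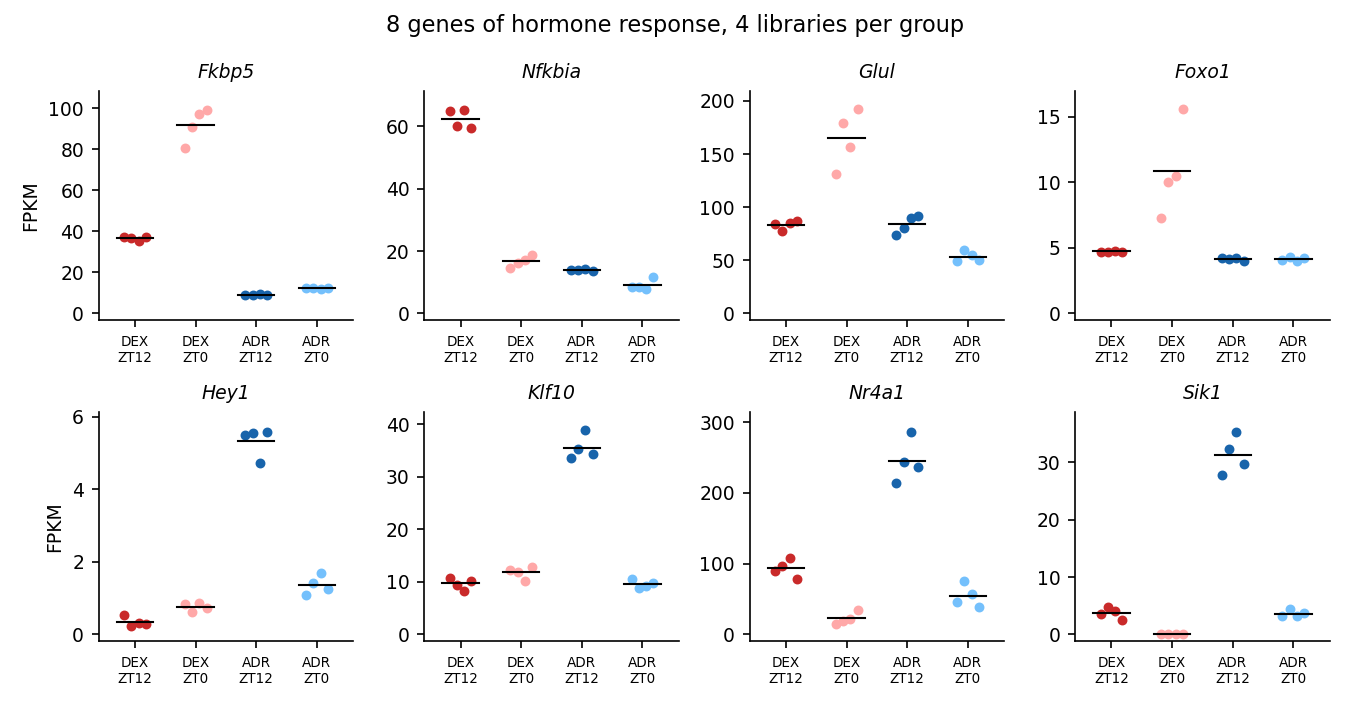
FPKM of 8 hormone response genes in each of the 4 libraries per group, with the group mean as a bar. Fkbp5, Glul and Foxo1 are highest in ADX+DEX at ZT0, Nfkbia in ADX+DEX at ZT12, and Hey1, Klf10, Nr4a1 and Sik1 in ADX+ADR at ZT12.

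Of 21 genes of glucose and glycogen metabolism the difference was positive for 2 and negative for 5, against 7.6% and 5.99% of all tested genes, and for 1 and 6 in the 16-library test (5.53% and 7.01%). Slc2a4, the insulin-regulated glucose transporter GLUT4, had 168, 170.0, 179 and 179 FPKM at ZT12 against 231, 243, 245 and 233 FPKM at ZT0 under dexamethasone, and 164, 175, 189.8 and 181 FPKM at ZT12 against 153, 170.1, 163 and 154 FPKM at ZT0 under adrenaline. ADX+DEX at ZT0 was above all other libraries, and the difference was -0.60 ± 0.12 (adjusted p = 0.00048). Pfkfb3, which makes the activator of phosphofructokinase, had 86.1, 88.2, 63.4 and 82.6 FPKM at ZT12 against 12.4, 10.5, 11.3 and 7.54 FPKM at ZT0 under dexamethasone, and 41.2, 32.4, 18.7 and 23.1 FPKM at ZT12 against 8.16, 16.0, 11.6 and 14.6 FPKM at ZT0 under adrenaline. It was higher at ZT12 under both hormones, more so under dexamethasone, with a difference of 1.78 ± 0.49 (adjusted p = 0.013). Pfkfb1, an isoform of the same enzyme family, had 14.8, 14.2, 16.4 and 14.4 FPKM at ZT12 against 17.2, 19.0, 17.4 and 22.1 FPKM at ZT0 under dexamethasone, and 16.0, 17.1, 19.6 and 18.9 FPKM at ZT12 against 11.8, 13.0, 13.4 and 12.1 FPKM at ZT0 under adrenaline. It fell at ZT12 under dexamethasone and rose under adrenaline, for a difference of -0.84 ± 0.16 (adjusted p = 0.0003). Pdk4, the kinase that shuts off pyruvate dehydrogenase, had 71.2 to 124 FPKM at ZT12 and 0 to 378 FPKM at ZT0 under dexamethasone, and 63.9 to 273 FPKM at ZT12 and 0 to 1.66 FPKM at ZT0 under adrenaline. Replicate 4 was the highest ADX+DEX library at ZT0, the other 3 reaching at most 26.2 FPKM, and the adjusted p of the difference was 0.2.

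Of 15 genes of insulin signalling 0 had a positive and 3 a negative difference, against 7.6% and 5.99% of all tested genes, and 1 and 3 did in the 16-library test (5.53% and 7.01%). Tbc1d1, a Rab GTPase-activating protein that holds back GLUT4, had 25.6, 24.1, 29.5 and 25.9 FPKM at ZT12 against 48.6, 51.7, 45.5 and 64.9 FPKM at ZT0 under dexamethasone, and 27.0, 26.8, 32.9 and 26.0 FPKM at ZT12 against 29.0, 29.0, 26.9 and 29.6 FPKM at ZT0 under adrenaline, and its difference was -0.96 ± 0.25 (adjusted p = 0.0089). As for GLUT4, ADX+DEX at ZT0 was above all other libraries. Socs3, a feedback inhibitor of cytokine signalling, was at 0 FPKM in some libraries, and its call was lost in the 16-library test (adjusted p = 0.21). Castor1, the arginine sensor upstream of mTORC1, had 2.83, 2.58, 2.19 and 2.62 FPKM at ZT12 against 0.964, 1.07, 0.860 and 0.612 FPKM at ZT0 under dexamethasone, and 1.42, 0.935, 1.20 and 1.48 FPKM at ZT12 against 1.06, 1.53, 1.16 and 1.04 FPKM at ZT0 under adrenaline. ADX+DEX at ZT12 was above all others, and the difference was 1.49 ± 0.24 (adjusted p = 2.9e-05). Sesn2, a leucine sensor of the same pathway, had a difference of -0.69 ± 0.19 (adjusted p = 0.011). Of the 14 mTORC1 brakes and nutrient sensors 1 was positive and 2 were negative, against 7.6% and 5.99% of all tested genes. In the 16-library test the counts were 1 and 3, against 5.53% and 7.01%.

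Of 9 tested genes of amino acid stress and transport, 0 had a positive and 5 a negative difference in both tests. The shares over all tested genes were 7.6% positive and 5.99% negative in the 12-group test, and 5.53% and 7.01% in the 16-library test. Slc38a2, a carrier of small neutral amino acids, had 22.5, 21.7, 20.5 and 24.6 FPKM at ZT12 against 37.3, 40.0, 40.9 and 68.7 FPKM at ZT0 under dexamethasone, and 32.1, 33.7, 38.8 and 31.2 FPKM at ZT12 against 37.4, 36.5, 35.5 and 37.2 FPKM at ZT0 under adrenaline. Slc7a8, a carrier of large neutral amino acids, had 1.92, 1.87, 2.25 and 2.25 FPKM at ZT12 against 2.88, 3.60, 3.65 and 5.11 FPKM at ZT0 under dexamethasone, and 2.98, 3.92, 3.29 and 4.02 FPKM at ZT12 against 2.87, 3.70, 3.24 and 3.04 FPKM at ZT0 under adrenaline. In both genes ADX+DEX at ZT12 was below ZT0 without overlap, and the adrenaline groups overlapped. The differences were -0.91 ± 0.25 (adjusted p = 0.012) for Slc38a2 and -0.99 ± 0.22 (adjusted p = 0.0018) for Slc7a8. Slc3a2, the heavy chain of several amino acid carriers, had -0.41 ± 0.11 (adjusted p = 0.0089). Sat1 and Odc1, which break down and make polyamines, had -0.64 ± 0.19 (adjusted p = 0.02) and -0.46 ± 0.15 (adjusted p = 0.03), and both calls were lost without at least 1 library. Odc1 had an adjusted p of 0.089 in the 16-library test.

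Of 20 atrophy and FOXO genes 3 had a positive and 3 a negative difference in the 12-group test (7.6% and 5.99% of all tested genes), and 4 and 8 in the 16-library test (5.53% and 7.01%). Ctsl, a lysosomal protease, had 89.8, 89.9, 79.7 and 85.9 FPKM at ZT12 against 53.8, 51.6, 50.7 and 46.5 FPKM at ZT0 under dexamethasone, and 51.9, 49.6, 46.5 and 50.4 FPKM at ZT12 against 41.8, 45.7, 43.3 and 44.7 FPKM at ZT0 under adrenaline. ADX+DEX at ZT12 was above all other libraries, and the difference was 0.59 ± 0.10 (adjusted p = 5.1e-05). Gadd45a, a stress gene that rises in denervated muscle, had 24.3, 21.0, 25.4 and 31.1 FPKM at ZT12 against 8.32, 9.91, 10.3 and 7.52 FPKM at ZT0 under dexamethasone, and 16.9, 16.8, 20.1 and 14.0 FPKM at ZT12 against 13.3, 15.8, 15.1 and 12.0 FPKM at ZT0 under adrenaline, again highest in ADX+DEX at ZT12, and its difference was 1.23 ± 0.29 (adjusted p = 0.0031). Foxo3, the partner of Foxo1, had 6.99, 6.65, 6.40 and 7.04 FPKM at ZT12 against 8.80, 10.0, 10.6 and 10.8 FPKM at ZT0 under dexamethasone, and 5.37, 5.38, 5.53 and 4.74 FPKM at ZT12 against 5.27, 5.31, 5.02 and 4.84 FPKM at ZT0 under adrenaline. It fell at ZT12 under dexamethasone, the adrenaline groups overlapped, and the difference was -0.61 ± 0.11 (adjusted p = 0.00029). The muscle ubiquitin ligases Fbxo32 and Trim63 had differences of -0.31 ± 0.42 (adjusted p = 0.69) and 0.25 ± 0.22 (adjusted p = 0.49), neither past the test. Of 18 autophagy and lysosome genes 2 were positive and 1 was negative, near the shares of 7.6% and 5.99% over all tested genes. Sqstm1, a receptor of selective autophagy, had 0.32 ± 0.10 (adjusted p = 0.036) and Atg12, a protein of autophagosome formation, -0.23 ± 0.08 (adjusted p = 0.049). Both calls were lost without at least 1 library, and Atg12 had an adjusted p of 0.075 in the 16-library test.

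Lipid genes were mixed. Gpam, the first enzyme of triglyceride synthesis, had 61.1, 59.8, 68.9 and 56.5 FPKM at ZT12 against 18.7, 22.6, 22.0 and 29.9 FPKM at ZT0 under dexamethasone, and 54.5, 54.7, 50.5 and 47.6 FPKM at ZT12 against 34.0, 42.8, 33.5 and 33.9 FPKM at ZT0 under adrenaline. ZT12 was above ZT0 under both hormones, and the difference was 0.89 ± 0.16 (adjusted p = 0.00015). Srebf2, the master regulator of cholesterol synthesis genes, had 2.80 to 3.02 FPKM at ZT12 and 3.53 to 4.21 FPKM at ZT0 under dexamethasone, and 2.64 to 3.29 FPKM at ZT12 and 5.09 to 5.95 FPKM at ZT0 under adrenaline. It fell at ZT12 under both hormones, further under adrenaline, with a difference of 0.55 ± 0.12 (adjusted p = 0.0011). Sc5d, a late enzyme of the pathway, had a difference of 0.36 ± 0.09 (adjusted p = 0.0055). Of 12 tested cholesterol genes 2 were positive and 1 was negative, against 7.6% and 5.99% of all tested genes. Of 20 lipid droplet and lipogenesis genes 3 were positive and 1 was negative. In the 16-library test the counts were 3 and 1 for cholesterol genes and 1 and 6 for lipid droplet and lipogenesis genes, against 5.53% and 7.01%. Scd2, a fatty acid desaturase, and Mgll, a monoglyceride lipase, had 0.87 ± 0.28 (adjusted p = 0.03) and 0.64 ± 0.20 (adjusted p = 0.032), and neither passed the 16-library test. Ppard, a nuclear receptor for fatty acids, was the only one of 17 fatty acid genes past the 12-group test, at -0.38 ± 0.10 (adjusted p = 0.0095). The shares over all tested genes were 7.6% positive and 5.99% negative. In the 16-library test 0 fatty acid genes were positive and 2 negative, against 5.53% and 7.01%.

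Of 13 tested myogenic factors 1 had a positive and 5 a negative difference, against 7.6% and 5.99% of all tested genes, and under dexamethasone 6 fell at ZT12, against 13.2%. Myf6, the myogenic factor of mature fibres, had 63.0, 64.6, 65.3 and 63.0 FPKM at ZT12 against 121, 118, 113 and 141 FPKM at ZT0 under dexamethasone, and 65.9, 69.9, 63.1 and 68.7 FPKM at ZT12 against 65.0, 74.9, 68.3 and 67.7 FPKM at ZT0 under adrenaline. ADX+DEX at ZT0 was above all other libraries, the other 3 groups overlapped, and the difference was -0.90 ± 0.13 (adjusted p = 4.3e-06). Myog, which drives differentiation, had 0.188, 0.523, 0 and 1.21 FPKM at ZT12 against 2.20, 1.99, 2.42 and 3.88 FPKM at ZT0 under dexamethasone, and 5.05, 4.36, 3.29 and 2.45 FPKM at ZT12 against 2.23, 2.77, 2.46 and 1.53 FPKM at ZT0 under adrenaline; 1 library was at 0, and the adjusted p was 0.0007 in the 12-group test and 0.051 in the 16-library test. Each dexamethasone library at ZT12 was below each at ZT0. Mybph, a myosin-binding protein, was listed at 0 FPKM in all 4 ADX+DEX libraries at ZT12 and at 8.80, 15.5, 16.7 and 15.7 FPKM at ZT0, against 137, 152, 149.9 and 135 FPKM at ZT12 and 138, 161, 195 and 118 FPKM at ZT0 under adrenaline. Both dexamethasone groups were far below both adrenaline groups, which overlapped, and uninjected adrenalectomized mice had 175 to 228 FPKM at ZT12 and 113 to 167 FPKM at ZT0. The test called its difference negative (adjusted p = 9.4e-21), with no fold given against values of 0.

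Tcap, the titin cap protein of the Z-disc, had 3795, 3910.0, 3879 and 3984 FPKM at ZT12 against 3507, 3573, 3675 and 3522 FPKM at ZT0 under dexamethasone, and 2873, 3108, 2957 and 2922 FPKM at ZT12 against 1392, 1804, 1522 and 1440.4 FPKM at ZT0 under adrenaline. ADX+ADR at ZT0 was the lowest group, and the difference was -0.83 ± 0.15 (adjusted p = 0.00016). It belongs to a list of 14 rhythmic muscle genes, of which 3 had a positive and 5 a negative difference, against 7.6% and 5.99% of all tested genes. Tspan4, a tetraspanin, had 6.05, 6.56, 6.05 and 4.90 FPKM at ZT12 against 2.39, 2.28, 2.41 and 2.30 FPKM at ZT0 under dexamethasone, and 7.07, 6.56, 5.10 and 6.61 FPKM at ZT12 against 3.57, 4.23, 4.18 and 4.11 FPKM at ZT0 under adrenaline. It rose under both hormones, and the difference was 0.67 ± 0.13 (adjusted p = 0.00065). Leo1, a subunit of the PAF1 transcription complex, fell under both, with time effects of -0.25 under dexamethasone and -0.70 under adrenaline, and a difference of 0.44 ± 0.10 (adjusted p = 0.0027).

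Differences of energy and protein turnover genes were small. All 20 nuclear-encoded oxidative phosphorylation genes had a negative difference, with a list median of -0.18, and 4 passed the 12-group test and 2 the 16-library test, against 5.99% and 7.01% negative over all tested genes. Sdhc, a subunit of succinate dehydrogenase, had 90.8, 96.0, 101 and 99.1 FPKM at ZT12 against 101, 103, 103 and 99.5 FPKM at ZT0 under dexamethasone, and 103, 104, 108 and 111 FPKM at ZT12 against 98.2, 98.9, 101 and 97.2 FPKM at ZT0 under adrenaline, and its difference was -0.18 ± 0.05 (adjusted p = 0.013). The respiratory complex III genes Uqcrfs1 and Uqcrc1 had -0.25 ± 0.07 (adjusted p = 0.021) and -0.24 ± 0.08 (adjusted p = 0.033), and Uqcrc1 had an adjusted p of 0.056 in the 16-library test. The proteasome genes Psmb6 and Psmb5 had -0.18 ± 0.06 (adjusted p = 0.034) and -0.22 ± 0.07 (adjusted p = 0.031), the second with an adjusted p of 0.061 in the 16-library test, and the mitochondrial chaperone Hspe1 had -0.29 ± 0.10 (adjusted p = 0.038). Each of these 5 calls was lost without at least 1 library. Among heat shock genes, Hsp90aa1 fell at ZT12 under both hormones, with time effects of -0.88 under dexamethasone and -0.74 under adrenaline and an adjusted p of the difference of 0.59.

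Markers of other cells moved too, and in whole muscle fewer cells of a type and less RNA per cell cannot be told apart. Of 16 fibroblast and matrix genes 7 had a positive difference in the 12-group test and 0 a negative one (7.6% and 5.99% of all tested genes), and 3 and 1 in the 16-library test (5.53% and 7.01%). Of the 7 positive calls, 4 were in genes with no value at 0. On log2(FPKM + 1) the counts were 5 positive and 1 negative. The list median was 1.73, or 1.04 over the 9 genes with no value at 0. Under adrenaline 5 fell at ZT12, against 6.45% of all tested genes, and under dexamethasone 4 rose, against 14.7%. The summed level of the 16 genes was 132.5 to 180.9 FPKM at ZT12 and 136.8 to 167.6 FPKM at ZT0 under dexamethasone, and 166.7 to 374.6 FPKM at ZT12 and 335.4 to 611.5 FPKM at ZT0 under adrenaline. Col1a1, Col3a1, Fn1 and Timp1 were at 0 in all 8 ADX+DEX libraries, so their differences come from the adrenaline libraries alone. Col6a3, a chain of collagen VI, had 2.55, 1.52, 2.68 and 1.64 FPKM at ZT12 against 1.47, 0.856, 0.684 and 0.926 FPKM at ZT0 under dexamethasone, and 6.33, 4.48, 3.51 and 5.37 FPKM at ZT12 against 6.87, 8.80, 8.57 and 9.56 FPKM at ZT0 under adrenaline, and its difference was 1.90 ± 0.31 (adjusted p = 4.1e-05). Lum, a proteoglycan of collagen fibrils, had 14.3, 8.50, 15.2 and 7.59 FPKM at ZT12 against 9.07, 5.18, 2.54 and 2.83 FPKM at ZT0 under dexamethasone, and 42.9, 21.1, 33.4 and 32.0 FPKM at ZT12 against 43.5, 55.7, 56.8 and 53.2 FPKM at ZT0 under adrenaline. In both genes the dexamethasone levels were below the adrenaline levels at both times, and Lum had a difference of 2.07 ± 0.60 (adjusted p = 0.018). Col6a1 had 1.55 ± 0.35 (adjusted p = 0.0026) and Fndc1 2.03 ± 0.31 (adjusted p = 2.0e-05). The tendon gene Tnmd was at 0 FPKM in all ADX+DEX libraries at ZT0, and its adjusted p was 0.017 in the 12-group test and 0.056 in the 16-library test.

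Egfl7, secreted by endothelium, had 6.56, 5.64, 5.30 and 5.03 FPKM at ZT12 against 13.4, 12.4, 13.4 and 15.4 FPKM at ZT0 under dexamethasone, and 26.2, 25.5, 18.6 and 20.8 FPKM at ZT12 against 18.3, 20.5, 18.2 and 16.0 FPKM at ZT0 under adrenaline. Under dexamethasone ZT12 was below ZT0 without overlap and under adrenaline the groups overlapped, with a difference of -1.59 ± 0.16 (adjusted p = 7.0e-09). The 11 endothelial markers summed to 96.61 to 117.1 FPKM at ZT12 and 105.7 to 110.0 FPKM at ZT0 under dexamethasone, and to 177.7 to 260.0 FPKM at ZT12 and 157.1 to 170.9 FPKM at ZT0 under adrenaline. Cldn5, a tight junction protein of endothelium, made up much of the higher sum in ADX+ADR at ZT12, with 1.24 to 3.59 FPKM at ZT12 and 0 to 3.52 FPKM at ZT0 under dexamethasone, and 69.0 to 97.4 FPKM at ZT12 and 17.9 to 22.1 FPKM at ZT0 under adrenaline, and the adjusted p of its difference was 0.32. Of these markers 1 was positive (Tek, 0.53 ± 0.18 (adjusted p = 0.041), lost in the 16-library test) and 2 negative, the second being Flt1, a VEGF receptor, at -0.49 ± 0.14 (adjusted p = 0.015), against 7.6% and 5.99% of all tested genes. Pecam1, a pan-endothelial marker, had 14.2 to 16.7 FPKM at ZT12 and 16.6 to 17.9 FPKM at ZT0 under dexamethasone, and 14.1 to 22.2 FPKM at ZT12 and 19.0 to 23.3 FPKM at ZT0 under adrenaline, with a difference of 0.00 ± 0.13 (adjusted p = 0.99). Of 10 tested macrophage markers 0 passed the 12-group limma test of the difference and 1 passed the 16-library test, against 13.6% and 12.5% of all tested genes. Of the same 10 markers, 1 had an unadjusted p under 0.05. Under dexamethasone 5 of them fell at ZT12 and under adrenaline 2, against 13.2% and 6.45% of all tested genes, and in the 16-library test 7 and 0, against 13.1% and 5.27%. Their summed level was 20.17 to 26.38 FPKM at ZT12 and 32.22 to 54.97 FPKM at ZT0 under dexamethasone, and 27.91 to 52.21 FPKM at ZT12 and 40.01 to 67.98 FPKM at ZT0 under adrenaline. Of 9 tested inflammation genes 3 were positive and 1 was negative, against 7.6% and 5.99% of all tested genes. Cxcl12, a chemokine of stromal cells, had 8.98, 9.48, 8.99 and 9.83 FPKM at ZT12 against 6.87, 7.26, 5.86 and 5.46 FPKM at ZT0 under dexamethasone, and 14.6, 12.5, 10.7 and 12.1 FPKM at ZT12 against 15.0, 14.4, 14.6 and 15.3 FPKM at ZT0 under adrenaline, and its difference was 0.81 ± 0.16 (adjusted p = 0.00048). Il1r1, the interleukin 1 receptor, fell at ZT12 under adrenaline, with a time effect of -0.91 and a difference of 0.77 ± 0.17 (adjusted p = 0.0013). The part of cell makeup in these results was not tested.

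**Figure D5:**
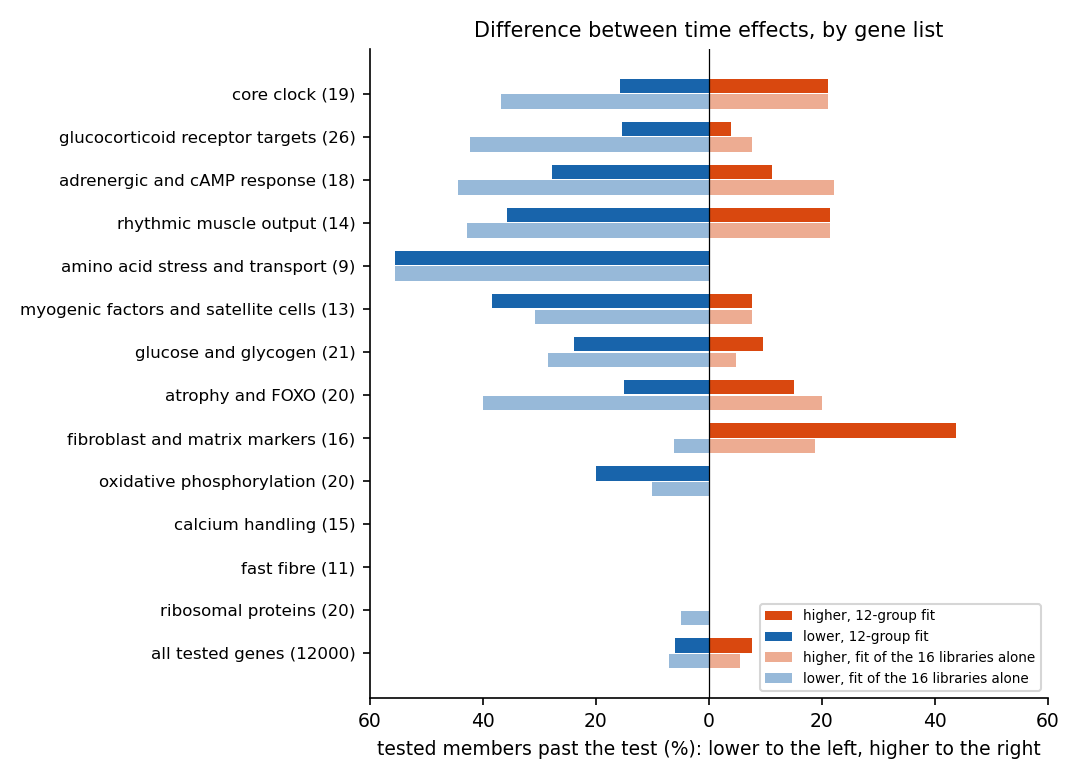
Percent of the tested members of each gene list with a positive (right) or negative (left) difference past the test, in the 12-group model and in the model of the 16 libraries alone, with the number of tested members in brackets and all tested genes in the lowest row. The amino acid list has 5 of 9 members to the left and none to the right, and calcium handling and fast fibre genes have no bar.

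In 6 lists described here, 0 members passed the limma test of the difference with either set of libraries. Over all tested genes 13.6% passed the 12-group test and 12.5% the 16-library test. The count at an unadjusted p under 0.05 was 0 of 11 fast fibre genes, 0 of 10 slow fibre genes, 1 of 15 calcium handling genes, 1 of 13 mitochondrially encoded genes, 2 of 13 interferon response genes and 2 of 7 smooth muscle genes. Of the calcium handling genes, 5 rose at ZT12 under dexamethasone and 0 under adrenaline, against 14.7% and 6.28% of all tested genes, with no difference past the test.

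Some genes fell or rose at ZT12 under both hormones with no difference past the test. Rasl11a, a small GTPase of the Ras family, had 1.12, 0.678, 0.649 and 0.735 FPKM at ZT12 against 3.48, 2.15, 3.13 and 2.11 FPKM at ZT0 under dexamethasone, and 0.654, 0.770, 0.762 and 0.694 FPKM at ZT12 against 1.59, 1.71, 1.54 and 1.32 FPKM at ZT0 under adrenaline. ZT12 was below ZT0 under both hormones with no overlap, and the difference was -0.68 ± 0.32 (adjusted p = 0.16). Creb3l1, Fam84b, Cxcr4 and Ppp1r27 also fell under both, with differences of 0.03 ± 0.40 (adjusted p = 0.97), 0.61 ± 0.22 (adjusted p = 0.062), 0.89 ± 0.36 (adjusted p = 0.09) and -0.32 ± 0.37 (adjusted p = 0.63). For Cxcr4 the 95% interval was 0.17 to 1.61, and its difference passed the 12-group limma test on log2(FPKM + 1) (adjusted p = 0.026). Gadd45b, a stress response gene, rose under both, with 52.1 to 60.4 FPKM at ZT12 and 12.9 to 22.6 FPKM at ZT0 under dexamethasone, and 71.6 to 87.2 FPKM at ZT12 and 12.2 to 15.6 FPKM at ZT0 under adrenaline, and a difference of -0.70 ± 0.34 (adjusted p = 0.18) that passed in the 16-library test (adjusted p = 0.031).

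Time effects ran in opposite directions past the test under each hormone in 93 genes, 0.775% of those tested: 41 rose at ZT12 under dexamethasone and fell under adrenaline, and 52 did the reverse. Beside Hey1, Lrrc32 and Id1, these included Klf3, a transcriptional repressor of the Krüppel-like family, with 1.29, 0.984, 1.12 and 0.957 FPKM at ZT12 against 1.90, 2.19, 1.80 and 1.90 FPKM at ZT0 under dexamethasone, and 1.74, 1.92, 1.65 and 2.03 FPKM at ZT12 against 1.40, 1.69, 1.27 and 1.50 FPKM at ZT0 under adrenaline. Its difference was -1.17 ± 0.15 (adjusted p = 1.2e-06), and the adrenaline effect of 0.33 had an adjusted p of 0.085 in the 16-library test. Litaf, a membrane protein of late endosomes, had 1.88, 1.90, 1.57 and 1.59 FPKM at ZT12 against 2.36, 2.13, 1.91 and 2.89 FPKM at ZT0 under dexamethasone, and 9.03, 7.79, 6.12 and 7.41 FPKM at ZT12 against 3.61, 3.70, 3.52 and 3.65 FPKM at ZT0 under adrenaline. All adrenaline libraries were above all dexamethasone libraries, and the difference was -1.46 ± 0.19 (adjusted p = 1.3e-06).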

How the data were processed

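RNA of whole tibialis anterior muscles was sequenced as 60-base single-end reads on an Illumina HiSeq, at 25 M reads on average, per the labels' protocols. The authors deposited 1 table of log2 values for 13500 genes and 47 libraries, whose lowest value of -6.64 is that of log2(FPKM + 0.01) at 0 FPKM. The submitters' processing notes name edgeR 3.30.0, featureCounts 1.6.2, HISAT2 2.1.0, Trim Galore 0.5.0 and FastQC 0.11.8, without their roles. Whether counting used strand is not given in the sources used here, so reads of overlapping or antisense genes cannot be told apart.

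The deposited log2 values were fitted with limma 3.58.1 in R 4.3.3 as 12 group means, with a trend in the prior variance, for the 12000 genes with at least 1 FPKM in at least 3 libraries. P-values were adjusted over these genes by the Benjamini-Hochberg method, and an adjusted p under 0.05 was called. The spread had 35 residual degrees of freedom in that model and 12 in the model of the 16 injected libraries. Alternatives were an offset of 1 FPKM, no filter, genes without zeros, equal library medians, age as a covariate, no trend, a replicate block and leaving out each library. The code was tested on simulated data. Depth was recovered from low non-zero values of 68 genes at 0 in at least 30 libraries, with 7 to 20 such values per library. The depth taken was the one at which most of these values were whole within 0.05 read, 93.3 to 100% per library. That share was sought by the method and is no separate check of the depth. Low values were compared between libraries as deposited.

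Symbols matched for 13441 genes, and positions are those of GENCODE M21. Named genes were the 12 highest and 12 lowest differences, up to 3 called members of each list, shared and opposite genes, genes at 0 in 1 group and 9 fixed genes; other list members were added after their values were seen. A few genes that the rule names are not reported here. The members, lists and tests were chosen with earlier results of these data known. Python 3.11.15, pandas 2.3.3, numpy 2.4.6 and matplotlib 3.10.9 were used.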

Additional observations from a re-analysis of the deposited data

Results flagged for a closer look

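The time effect differed between the hormones past the limma test for 1631 genes, of which 26 named ones were set out for the size or certainty of their difference. Positive differences were 3.28 for Mir133a-1, 2.91 for Loxl1, 2.87 for Gja1, 2.60 for Golga7b, 2.60 for Rhobtb1, 2.20 for Pik3cd, 2.07 for Lum, 2.03 for Fndc1, 2.02 for Mndal, 1.96 for Nr1d1, 1.90 for Col6a3 and 1.85 for Cyp4f39. Negative differences were -3.19 for Hey1, -2.30 for Id1, -2.26 for Lrrc32, -2.17 for Klf10, -2.11 for Gpr4, -2.08 for Uts2r, -2.02 for Klf4, -1.97 for Cys1, -1.95 for Snord72, -1.89 for Per2, -1.80 for Tlnrd1, -1.79 for Tnfrsf10b, -1.46 for Litaf and -1.17 for Klf3, all in log2 units.

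Among 382 groups of 4 values of the named genes, 30 held 1 library far from the other 3 by Dixon's test at 95% (7.85%; chance gives about 1 in 20). Replicate 7 of ADX+ADR at ZT12 was that library in 7 cases: Cry2 at 9.10 FPKM, Ddit4 at 5.56, Hey1 at 4.72, Mndal at 1.15, Per3 at 4.37, Tbc1d1 at 32.9 and Tek at 7.42. In the same group, replicate 5 had Pik3cd at 2.92 FPKM and replicate 6 had Socs3 at 1.46 FPKM. In ADX+DEX at ZT12, Ciart stood at 10.3 FPKM in replicate 6, Ppard at 9.30 in replicate 6, Hspe1 at 15.3 in replicate 5, Irs2 at 5.48 in replicate 5, Klf4 at 2.76 in replicate 8 and Tlnrd1 at 0.0803 in replicate 8.

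In ADX+DEX at ZT0, replicate 4 had Creb3l1 at 0.599 FPKM, Fam84b at 1.27 and Slc38a2 at 68.7, the last against 37.3 to 40.9 in the other 3, and replicate 1 had Hspe1 at 20.9 FPKM and Mybph at 8.80. In ADX+ADR at ZT0, replicate 4 had Cyp4f39 at 20.2 FPKM, Mir133a-1 at 4.93 against 17.0 to 18.3 in the others, and Ppp1r27 at 90.9. Replicate 3 of that group had Gadd45b at 12.2 FPKM, Golga7b at 1.60 and Mndal at 2.68, replicate 2 had Gpam at 42.8 and Slc3a2 at 10.6, and replicate 1 had Tspan4 at 3.57 and Uqcrfs1 at 369.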

How the results depend on the processing

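The count of differences past the test was 1631, and it was 1635 on log2(FPKM + 1), of which 1472 genes were kept, 1762 without the filter on low values, 1520 in genes with no value at 0, 1615 with equal library medians, 1504 in the 16 libraries alone, 1481 with age as a covariate and 1625 without the variance trend. Without 1 library it lay between 1261, without replicate 4 of ADX+DEX at ZT0, and 1709. The time effect counts lay between 2890 and 3375 under dexamethasone, 1156 and 1618 under adrenaline, and 3089 and 3407 for the mean of both. The split of 912 positive and 719 negative became 928 and 687 with equal medians, 832 and 803 on log2(FPKM + 1), and 663 and 841 in the 16 libraries.

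Replicate numbers gave no clear sign of pairing. Correlations of deviations were -0.17 to 0.15 over 8 pairs, 2 of them over 0.1, and 2 libraries correlated best with their own number. Such correlations cannot show whether animals of the same number were handled together. With the replicate block in the 16 libraries, 1304 differences passed, 577 positive and 727 negative, and 975 of the main calls were kept.

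Of the 82 called named genes, 65 kept their call without each library in turn and 70 in the 16 libraries alone, where 7 uncalled ones passed. The sign of 6 genes turned on log2(FPKM + 1): Ddit4 to 0.20, Sik1 to -0.58, Slc25a25 to -0.13, Ciart to 0.37, Apold1 to -0.61 and Junb to -1.46. Leaving out 1 library turned the sign in 4 uncalled genes, whose values ran from -0.27 to 0.14 for Nr4a1, -0.094 to 1.45 for Slc25a25, -0.14 to 0.42 for Creb3l1 and -0.37 to 1.10 for Apold1. Each named gene kept its sign under the other settings. The causes were not tested.

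Low levels limit Npas2, which lies below 1 FPKM in all 16 libraries, and precision rests on 4 libraries a group.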
